A study of Mus musculus with 7 samples.

Results

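Interferon-stimulated genes were followed in wound-edge skin of MFG-E8 knockout (KO) and wild-type (WT) mice. The set comprised 37 gene symbols, and a probe set, the group of array probes that reads one transcript, was counted where its annotation named exactly 1 of these symbols. By this rule 35 genes were measured by 55 probe sets, of 18193 genes and 45037 probe sets in all. The only probe set annotated to Isg15 was shared with Gm9706 and was not counted, and Ifi44 was not analysed here. Of the 35 genes, 21 had 1 probe set and 14 had 2 or more, up to 4.

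The study compared day 5 wound edges of C57BL/6 mice, 3 of MFG-E8 WT genotype (animals 2, 3 and 4) and 4 of MFG-E8 KO genotype (animals 8, 10, 11 and 12), with total RNA of 1 animal on each Affymetrix mouse array. MFG-E8 is a secreted protein that links apoptotic cells to the integrins of phagocytes for their uptake, and the comparison asks how its loss alters expression in the healing wound. The labels used here give no allele, age, sex or litter, and name no agent or treatment besides the wound, which both genotypes carried. Each animal is a separate sample in the labels, so the p-values measure the spread between animals.

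Interferons are secreted in response to foreign or misplaced nucleic acid (type I, alpha and beta) or by activated T and NK cells (type II, gamma). Type I interferon acts through IFNAR1 and IFNAR2 and brings STAT2 and IRF9 together in a complex, ISGF3, that binds interferon-stimulated response elements (ISRE). Interferon-gamma acts on gamma-activated sites (GAS), and many genes answer to both. In skin, keratinocytes, fibroblasts and infiltrating leukocytes all carry interferon receptors, and plasmacytoid dendritic cells that enter wounds are a known source of type I interferon.

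Both kinds of element were looked for in RefSeq promoter windows of assembly GRCm38.p6, each 300 bases long, from 250 bases before to 50 bases after a gene's start. Windows existed for 26 of the 35 genes (30 windows). The ISRE core searched was GAAA, 2 free bases and a further GAAA, on both strands, and it was found in 14 of the 30 windows (46.7%), each of a different gene, against 3.44% of 32851 windows of all genes. The GAS core TTCNNNGAA, which reads the same on both strands, was found in 7 windows (23.3%) against 8.3% of all. A match is a description of the letters and no evidence of binding. The windows of Psmb9 and Tap1 lie on opposite strands, overlap by 275 bases and held no match of either core. The last 160 bases before the start are shown for 7 genes, chosen as examples of the 2 kinds of element among effectors, a transcription factor and an antigen processing gene. Each reads 5′ to 3′ along the strand of the gene, and capitals mark the matched cores. An ISRE core on the opposite strand reads as TTTC, 2 bases and TTTC. In Bst2 the GAS core overlaps the first of the pair of ISRE cores, so they form one run of capitals.
Ifit1, chr19:34640729-34640888, plus strand, 2 ISRE cores: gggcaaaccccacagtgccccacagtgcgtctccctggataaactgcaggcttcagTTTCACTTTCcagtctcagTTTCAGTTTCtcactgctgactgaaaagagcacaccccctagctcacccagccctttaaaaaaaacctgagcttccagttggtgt
Ifit3, chr19:34583369-34583528, plus strand, 2 ISRE cores: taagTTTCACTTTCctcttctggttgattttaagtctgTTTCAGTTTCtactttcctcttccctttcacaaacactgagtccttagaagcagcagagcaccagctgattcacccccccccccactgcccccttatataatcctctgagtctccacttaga
Rsad2, chr12:26456453-26456612, minus strand, 1 ISRE core: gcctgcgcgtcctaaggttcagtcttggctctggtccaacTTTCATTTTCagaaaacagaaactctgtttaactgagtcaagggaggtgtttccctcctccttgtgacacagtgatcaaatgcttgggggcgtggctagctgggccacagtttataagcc
Bst2, chr8:71537473-71537632, minus strand, 2 ISRE cores and 1 GAS core: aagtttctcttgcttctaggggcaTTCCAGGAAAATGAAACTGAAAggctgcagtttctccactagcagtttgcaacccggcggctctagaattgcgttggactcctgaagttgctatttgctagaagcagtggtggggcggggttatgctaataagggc
Gbp2, chr3:142620503-142620662, plus strand, 1 ISRE core: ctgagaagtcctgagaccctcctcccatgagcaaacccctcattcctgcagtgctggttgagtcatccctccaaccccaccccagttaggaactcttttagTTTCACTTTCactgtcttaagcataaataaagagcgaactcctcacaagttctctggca
Irf1, chr11:53769854-53770013, plus strand, 1 GAS core: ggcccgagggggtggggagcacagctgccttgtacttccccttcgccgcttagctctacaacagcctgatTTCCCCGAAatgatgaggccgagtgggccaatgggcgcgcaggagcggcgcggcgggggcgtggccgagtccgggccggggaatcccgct
Psmb8, chr17:34198035-34198194, plus strand, 1 GAS core: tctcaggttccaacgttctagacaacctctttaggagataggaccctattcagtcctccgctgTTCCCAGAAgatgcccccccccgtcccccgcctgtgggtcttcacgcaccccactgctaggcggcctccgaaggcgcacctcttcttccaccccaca

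Values are log2 intensities from which the submitters had subtracted 1 constant per probe set. They therefore show differences between animals and not expression levels, and no gene's level is set against another's. A coarse level could be read from the rounding steps of the stored numbers. It is set by the lowest array of a probe set, so other animals can lie above the band named. By it, 24 of the 35 genes had a probe set at a log2 level of 8 or above, and the other 11 had one between 4 and 8. Of the 55 probe sets, 26, 25 and 4 lay at 8 or above, between 4 and 8 and between 2 and 4, against 26.4%, 54.3% and 19.4% of all probe sets. A gene's value below is the mean over its probe sets in its highest such band, and list medians and counts use it. Values given with an interval or an adjusted p are those of 1 probe set, the one with the smallest p in that band. Array medians lay between -0.0042 and 0.0121, and KO animal 12 had the smallest spread over probe sets (SD 0.214; 0.241 to 0.406 in the others). KO animals 8 and 10 stood apart in hair follicle genes, whose list mean was 3.78 and 3.90 there and between -2.44 and 0.73 in the other 5 animals. All 11 measured markers of epidermal keratinocytes and all 10 of fibroblasts lay at a level of 8 or above, which matches the label of wound-edge tissue. So did all 11 of skeletal muscle, so these levels do not single out skin. The muscle list averaged -0.38, 0.54 and 0.25 in WT animals 2, 3 and 4 and -1.11, -0.82, 0.07 and -0.06 in KO animals 8, 10, 11 and 12. Its mean was lower in KO in 11 of 11 genes (median -0.61), against 49.1% of all genes. The part of muscle in the results below was not tested.

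The targeted gene, Mfge8, was at 0.91, 0.76 and 1.0 in WT animals 2, 3 and 4 and at -0.64, -0.96, -1.14 and -1.30 in KO animals 8, 10, 11 and 12. All 4 KO animals lay below all 3 WT animals. The difference (KO minus WT) was -1.90 (SE 0.16, 95% interval -2.28 to -1.53, n = 3 WT and 4 KO), with a limma adjusted p of 0.00875. The exact permutation test gave a two-sided p of 0.0571, taken by doubling the smaller one-sided p. With this doubling it is the smallest value that the 35 splits of 7 arrays allow. The limma call was lost when WT animal 2, WT animal 3 or KO animal 10 was left out (adjusted p 0.0922, 0.0669 and 0.059), with differences from -1.97 to -1.89. Which part of the gene the probes read, relative to the deletion, is not given in the sources used here.

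None of the 35 interferon-stimulated genes passed the test between KO and WT, while the same genes differed widely between animals of 1 genotype. KO animal 12 had the highest value of the 4 KO animals in 35 of 35 genes and of all 7 animals in 31. KO animal 11 and WT animal 4 lay low in most of them. The antiviral genes Ifit2, Ifit3 and Mx1 differed by 5.72-fold, 4.23-fold and 4.13-fold between KO animals 12 and 11. In a whole-tissue sample, fewer cells of a type and less RNA per cell cannot be told apart.

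Of the 55 probe sets, 0 had an adjusted p under 0.05 (limma, Benjamini-Hochberg over all 45037), against 20 probe sets or 0.0444% of all. At an unadjusted p under 0.05 the count was also 0 of 55, against 7.39% of all. The smallest unadjusted p was 0.0918, and adjusted p-values ran from 0.74 to 0.999. By gene value, 0 of 35 had groups that did not overlap, against 8.44% of all genes. The mean was lower in KO in 21 of 35 genes (60%), against 49.1% of all genes. The median difference was -0.03, against 0.00 over all genes, and single genes ran from -0.31 (Rtp4) to 0.33 (Ifit2). These small differences had no settled direction. Without KO animal 12, 33 of 35 genes had a lower mean in KO (51.7% of all genes) and the median was -0.21. Without KO animal 11, and likewise after quantile normalization of the arrays, the count was 12 and the median 0.03 and 0.05.

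A missed threshold does not show that the genotypes are alike. The 95% interval of the difference lay within log2 -1 and 1, that is within a change of 2-fold either way, in 32 of 35 genes (91.4%; 93.0% of all probe sets), taking for each gene the probe set with the smallest p among those of its highest level band. The median distance from the difference to either end of its interval was 0.56, against 0.33 over all probe sets. Changes smaller than this were not resolved with 7 animals.

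**Figure D1:**
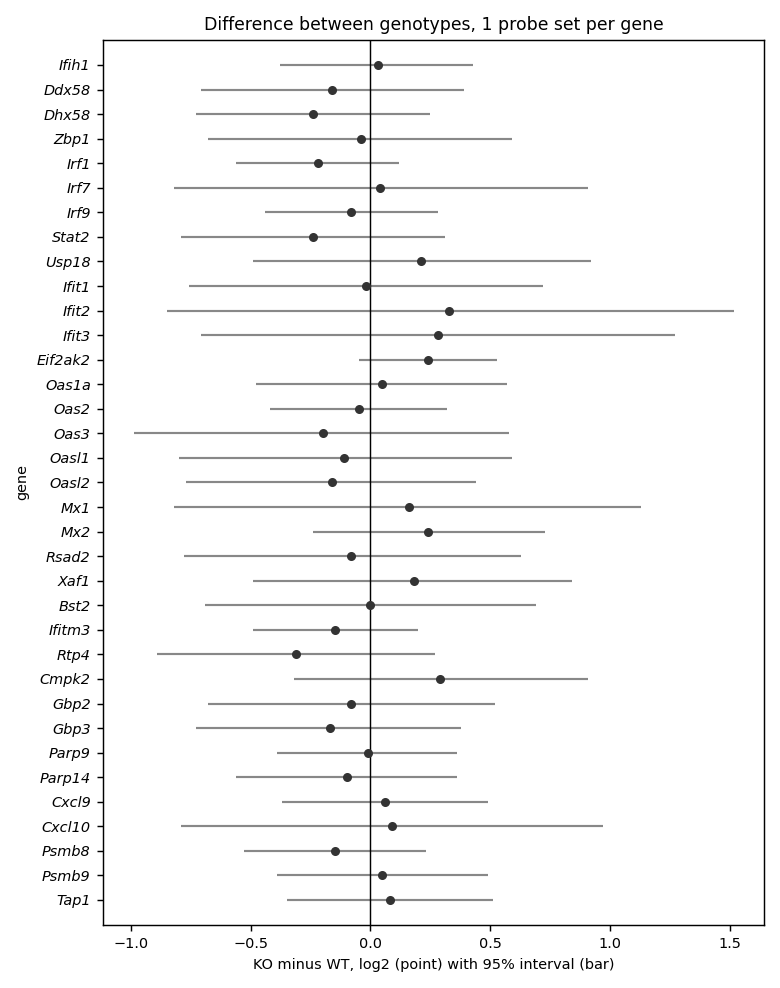
Difference KO minus WT on the log2 scale with its 95% interval from limma for 1 probe set of each of the 35 genes; the vertical line marks 0. All 35 intervals include 0, from Rtp4 at -0.31 to Ifit2 at 0.33.

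The genes spread widely within groups. The median within-group SD was 0.39 log2 units against 0.19 over all genes, and 0.191 over the 7590 genes at a level of 8 or above. The median SD was 0.27 in WT and 0.46 in KO, against 0.15 and 0.19 over all genes. The range over the 7 animals exceeded log2 1, a 2-fold span, in 23 of 35 genes (65.7%), against 16.0% of all. In 24 of 35 genes (68.6%) the KO animals spanned more than the whole WT range on both sides, against 29.7% of all genes.

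The order of the animals was largely shared. These ranks were counted after the values were seen and are descriptions. KO animal 12 was the highest of 7 in 31 of 35 genes (88.6%; 12.2% of all genes) and the highest KO animal in all 35 (28.7% of all). The exceptions were Oas2 and Irf1, where WT animal 3 was highest, and Rsad2 and Rtp4, where WT animal 2 was. KO animal 11 was the lowest KO animal in 22 genes (62.9%; 33.4% of all) and KO animal 8 in 9 (25.7%; 34.9% of all). WT animal 4 was the lowest WT animal in 30 (85.7%; 37.0% of all). The difference between KO animals 12 and 11 exceeded log2 1 in 19 genes (54.3%), against 1.1% of all, with a median of 1.04 against 0.05. Averaged over the 35 genes, WT animals 2, 3 and 4 were at 0.19, 0.17 and -0.28, and KO animals 8, 10, 11 and 12 at -0.14, -0.07, -0.35 and 0.63. This gives a WT mean of 0.03 ± 0.26 (SD, n = 3) and a KO mean of 0.02 ± 0.43 (SD, n = 4).

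**Figure D2:**
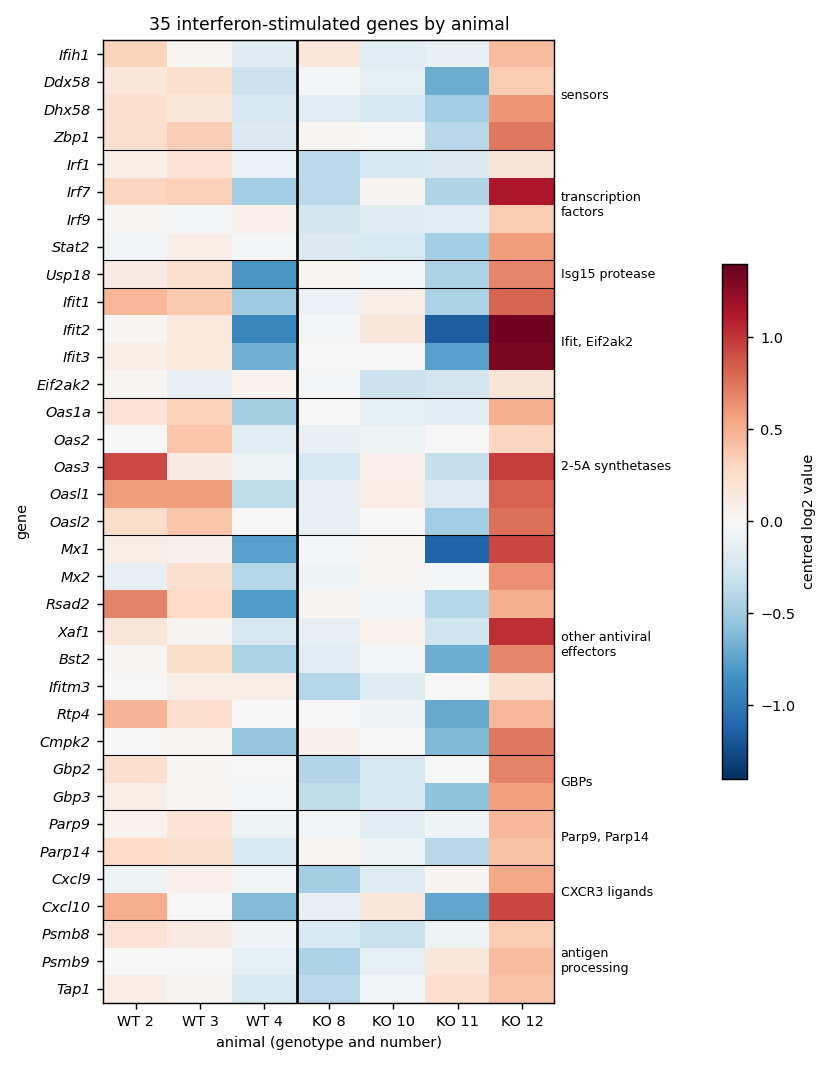
Centred log2 value of each of the 35 interferon-stimulated genes (rows, ordered by role) in each of the 7 animals (columns, WT 2 to 4 and KO 8 to 12); colour gives the value. The KO 12 column is the highest of the row in 31 genes, and the WT 4 and KO 11 columns are low in most.

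**Figure D3:**
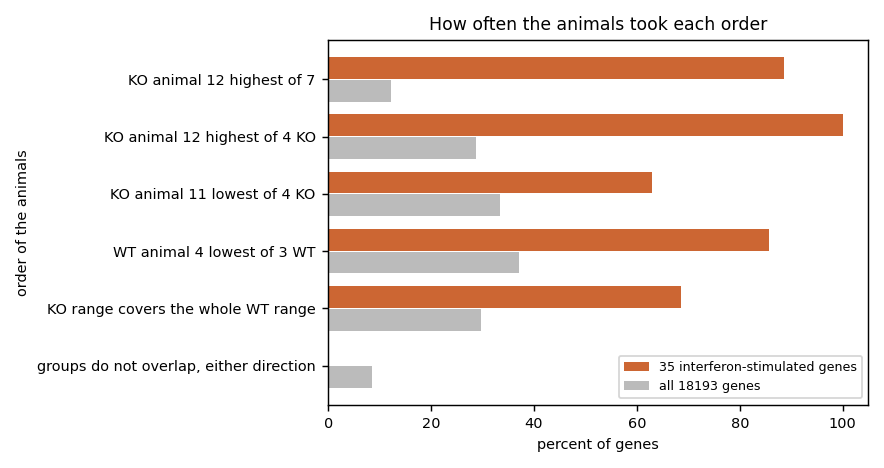
Percentage of the 35 genes and of all 18193 genes in which the animals stood in each order named on the vertical axis. KO animal 12 was the highest of 7 in 88.6% of the interferon-stimulated genes and in 12.2% of all genes.

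The sensors of foreign nucleic acid are themselves induced by interferon and feed its production. Dhx58 (LGP2, a RIG-I-like receptor without signalling domains) was at 0.21, 0.11 and -0.04 in WT animals 2, 3 and 4 and at -0.19, -0.45, -0.39 and 0.46 in KO animals 8, 10, 11 and 12. The other 3 KO animals lay below the WT range while KO animal 12 lay above it. The difference was -0.24 (95% interval -0.73 to 0.25, adjusted p 0.841). A further Dhx58 probe set of the same level band was at -0.43 in WT animal 4, against -0.04 here, and gave a difference of 0.00. Ddx58 (RIG-I, a sensor of short RNA with 5' triphosphates), Ifih1 (MDA5, a sensor of long double-stranded RNA) and Zbp1 (a sensor of left-handed nucleic acid that can trigger cell death) differed by -0.16, 0.03 and -0.03. As a group the 4 sensors averaged 0.23, 0.19 and -0.23 in WT and 0.00, -0.13, -0.42 and 0.53 in KO.

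Among the transcription factors, Irf1, which is induced by interferon-gamma and drives antigen presentation genes, was at 0.08, 0.19 and -0.08 in WT and at -0.37, -0.23, -0.20 and 0.18 in KO animals 8, 10, 11 and 12. KO animals 8, 10 and 11 lay below all WT animals, and KO animal 12 lay just under the highest WT animal. The difference was -0.22 (95% interval -0.56 to 0.12, adjusted p 0.791). The Irf1 promoter above carries a GAS core and no ISRE core, as that of Psmb8 does. Irf7, the factor that amplifies type I interferon transcription, spread far more, from -0.48 in WT animal 4 and -0.42 in KO animal 11 to 1.13 in KO animal 12, with a difference of 0.04. Irf9 and Stat2, both parts of ISGF3, differed by -0.08 and -0.09. Irf9 lay between -0.02 and 0.07 in WT and at -0.26, -0.17, -0.15 and 0.36 in KO, so that 1 KO animal lay on one side of WT and 3 on the other. Irf7 lies on chromosome 7, as Mfge8 does.

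Usp18, the protease that removes ISG15 from proteins and restrains signalling at IFNAR2, was at 0.12, 0.22 and -0.81 in WT and at 0.03, -0.03, -0.44 and 0.68 in KO. WT animal 4 was the lowest of all animals and KO animal 12 the highest. The difference was 0.21 (95% interval -0.49 to 0.92, adjusted p 0.908).

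Proteins of the Ifit family bind foreign RNA and block its translation, and Ifit2 and Ifit3 spread the widest of the 35 genes. Ifit2, singled out after its values were seen, was at 0.02, 0.15 and -0.91 in WT and at -0.02, 0.16, -1.15 and 1.36 in KO animals 8, 10, 11 and 12. The lowest and the highest of the 7 values thus both came from KO animals, 5.72-fold apart. Its difference of 0.33 had a 95% interval from -0.85 to 1.52 (adjusted p 0.915). Ifit3 was at 0.09, 0.15 and -0.67 in WT and at -0.01, 0.01, -0.76 and 1.32 in KO, with a difference of 0.28. Ifit1 was at 0.47, 0.37 and -0.50 in WT and at -0.08, 0.08, -0.44 and 0.82 in KO, with a difference of -0.02. Both have 2 ISRE cores in the sequences shown above, and in both the low animals were WT animal 4 and KO animal 11.

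Eif2ak2 (PKR, the kinase that stops translation on sensing double-stranded RNA) held the only probe set of the 55 whose groups did not overlap, against 7.77% of all probe sets. That probe set was at -0.10, -0.02 and -0.19 in WT and at 0.02, 0.06, 0.40 and 0.07 in KO. KO was higher by 0.24 (95% interval -0.05 to 0.53), with an unadjusted p of 0.0918 and an adjusted p of 0.74 in limma. The other 2 Eif2ak2 probe sets, of the same level band, gave -0.25 and -0.27, and the 3 disagreed most in KO animal 11 (0.40, -0.16 and -1.0). The mean over the 3 was -0.09.

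The oligoadenylate synthetases make the second messenger that activates RNase L, and the Oasl proteins are their relatives. Oasl2 was at 0.26, 0.39 and -0.01 in WT and at -0.10, 0.01, -0.48 and 0.77 in KO. KO animal 12 lay above and KO animals 8 and 11 below every WT animal. The difference was -0.16 (95% interval -0.77 to 0.44, adjusted p 0.919). The other 4 genes of the family differed by 0.05 (Oas1a), -0.05 (Oas2), -0.20 (Oas3) and -0.11 (Oasl1). Oas3 was high in 1 animal of each genotype, at 0.92 in WT animal 2 and 0.97 in KO animal 12, and lay between -0.32 and 0.12 in the other 5. WT animal 4 was the lowest WT animal in 5 of 5 genes.

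Of the other antiviral effectors, Rtp4, a receptor chaperone that also restricts viral replication, had the most negative difference. It was at 0.48, 0.24 and -0.01 in WT and at 0.01, -0.05, -0.71 and 0.46 in KO. The groups overlapped, with KO animal 12 almost level with the highest WT animal and KO animal 11 far below the rest. The difference was -0.31 (95% interval -0.89 to 0.27, adjusted p 0.826), and a second probe set of a lower level band gave 0.04. The remaining 7 genes differed by 0.24 (Mx2), 0.22 (Cmpk2), 0.18 (Xaf1), 0.16 (Mx1), 0.00 (Bst2), -0.04 (Rsad2) and -0.15 (Ifitm3).

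Mx1 and Mx2 encode dynamin-like GTPases against viruses, of which Mx1 is defective in most laboratory strains, C57BL/6 included. Mx1 ran from -1.12 in KO animal 11 to 0.93 in KO animal 12, and Mx2 from -0.40 in WT animal 4 to 0.64 in KO animal 12. Rsad2 (viperin, which makes a chain-terminating nucleotide) and its neighbour Cmpk2 (a nucleotide kinase) share a chromosomal locus. Rsad2 was at 0.70, 0.28 and -0.78 in WT and at 0.04, -0.04, -0.40 and 0.50 in KO, so that the WT animals spanned more than the KO animals did. Bst2 (tetherin, which holds virions at the cell surface) ran from -0.70 in KO animal 11 to 0.68 in KO animal 12, with group means that differed by 0.00. Ifitm3, which blocks viral entry and also lies on chromosome 7, had the smallest span of the 8, from -0.40 in KO animal 8 to 0.22 in KO animal 12. It was 1 of 13 genes in which KO animal 11 was not the lowest KO animal.

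**Figure D4:**
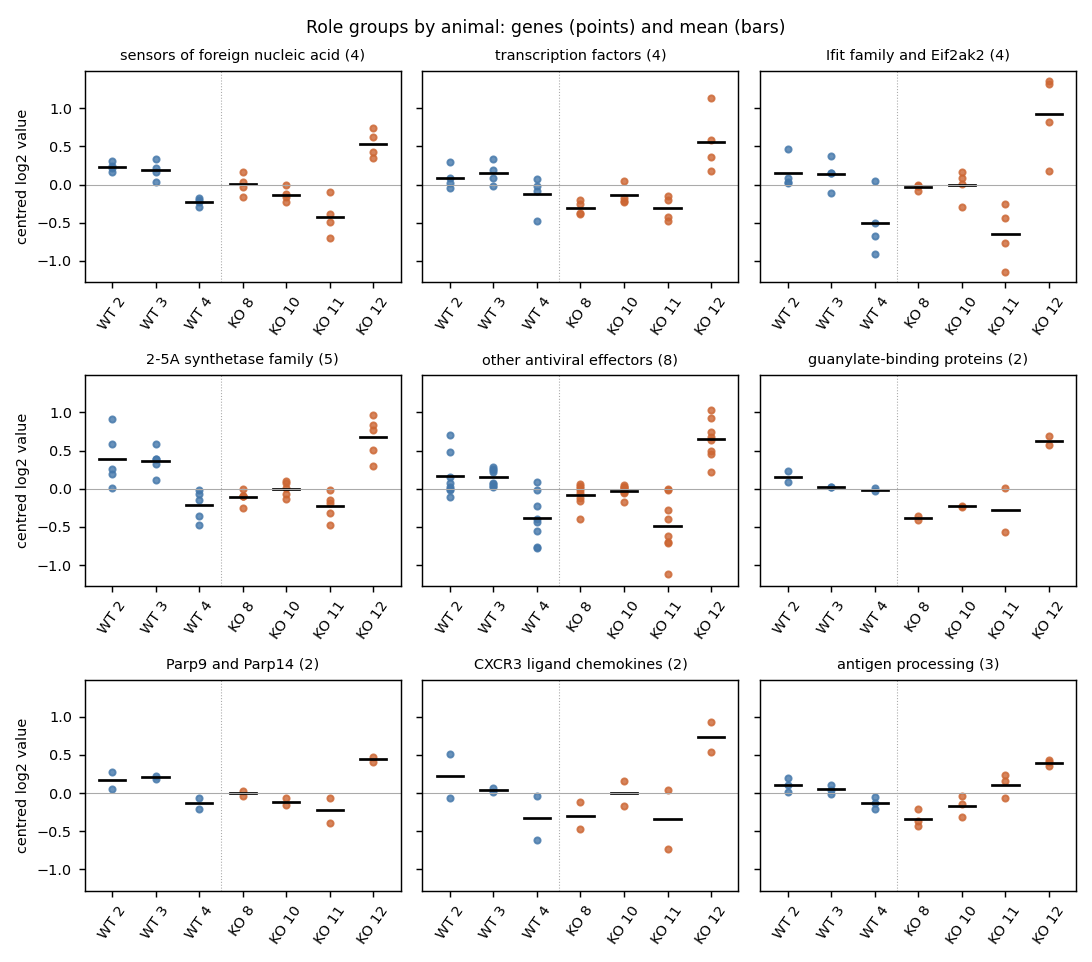
Centred log2 value of each gene (points) and the mean of its role group (bars) in each animal, WT in blue and KO in orange, with the number of genes in brackets. KO animal 12 is highest in every panel, from 0.39 for antigen processing to 0.92 for the Ifit family with Eif2ak2; KO animal 11 is at -0.65 in the latter and at 0.11 in the former.

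The mean of the 3 antigen processing genes placed the KO animals in another order, at -0.34, -0.16, 0.11 and 0.39 in KO animals 8, 10, 11 and 12. By gene value Irf1, Irf9, Ifitm3, Gbp2 and Cxcl9 had this order too, so it was not particular to antigen processing. Psmb8 did not keep it, with KO animal 10 lowest. Psmb8, Psmb9 and Tap1 encode immunoproteasome subunits and the peptide transporter that supply MHC class I. Psmb8 was at 0.20, 0.11 and -0.05 in WT and at -0.21, -0.31, -0.07 and 0.35 in KO animals 8, 10, 11 and 12. KO animals 8, 10 and 11 lay below WT and KO animal 12 above it, and the difference was -0.15 (95% interval -0.53 to 0.23, adjusted p 0.875). Psmb9 was at 0.01, -0.01 and -0.13 in WT and at -0.43, -0.14, 0.16 and 0.43 in KO, and Tap1 at 0.10, 0.04 and -0.21 in WT and at -0.37, -0.04, 0.24 and 0.40 in KO. In both, KO animals 8 and 10 were the lowest KO animals and KO animals 11 and 12 lay above every WT animal. Their differences were 0.05 and 0.08. The 3 genes averaged 0.11 in KO animal 11, where the Ifit group averaged -0.65, and -0.34 in KO animal 8, where the Ifit group averaged -0.03. Whether the groups of genes differ in this order was not tested. The mean of epidermal keratinocyte markers placed the KO animals in the same order as that of the antigen processing genes. It was at -0.68, -0.05, 0.27 and 0.33 in KO animals 8, 10, 11 and 12. KO animal 8 was the lowest KO animal in 10 of these 11 markers (34.9% of all genes). In WT the order differed: these markers averaged 0.05, -0.32 and 0.10, and the antigen processing genes 0.10, 0.05 and -0.13. Markers of T and NK cells, given below, also had KO animal 8 lowest and KO animal 12 highest in KO. The part of any of these cells in these values was not tested.

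The guanylate-binding proteins, GTPases that attack the vacuoles of intracellular microbes, stood between these patterns. Gbp3 was at 0.09, 0.03 and -0.03 in WT and at -0.35, -0.22, -0.56 and 0.57 in KO, with a difference of -0.17 (95% interval -0.73 to 0.38, adjusted p 0.906). Gbp2, whose promoter above carries 1 ISRE core, was at 0.23, 0.02 and 0.01 in WT and at -0.41, -0.24, 0.01 and 0.69 in KO, with a difference of -0.07. In both genes the WT animals lay close together and the KO animals spanned them on both sides, with KO animal 11 lowest for Gbp3 and KO animal 8 lowest for Gbp2. Cxcl9 and Cxcl10, chemokines that draw CXCR3-bearing T and NK cells, split in the same way. Cxcl9 was at -0.09, 0.14 and -0.19 in WT and at -0.36, -0.10, 0.09 and 0.43 in KO by 1 of its 2 probe sets, a difference of 0.06 (95% interval -0.37 to 0.49, adjusted p 0.962). The other probe set gave -0.06. Cxcl10 was at 0.51, 0.01 and -0.61 in WT and at -0.12, 0.16, -0.73 and 0.93 in KO, 3.16-fold apart between KO animals 12 and 11, with a difference of 0.09.

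Parp14, an ADP-ribosyltransferase, was at 0.28, 0.22 and -0.21 in WT and at 0.03, -0.07, -0.39 and 0.41 in KO. WT animal 4 and KO animal 11 were again the low animals. The difference was -0.10 (95% interval -0.56 to 0.36, adjusted p 0.935), and that of its relative Parp9, which acts with the ligase DTX3L, was -0.01.

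The rest of the pathway was read from lists of other genes. Of 70 further interferon-stimulated genes in 2 lists, 59 were measured, 44 with a lower mean in KO and 15 with a higher one. Of all genes, 49.1% had a lower mean in KO. The median was -0.10, against 0.00 over all genes. At an adjusted p under 0.05 in limma, 1 of the 59 fell and 0 rose, against 0.0444% of all probe sets called. At an unadjusted p under 0.05 there were 8 of 102 probe sets, against 7.39% of all. KO animal 12 was the highest of 7 in 38 of the 59 and the highest KO animal in 52, as in the 35 genes above. In the 38 measured genes of the type I list, KO animal 11 was the lowest KO animal in 21 and KO animal 8 in 10. In the 21 of the interferon-gamma list the numbers were 8 and 11. Averaged by animal, the type I list was at 0.22, 0.15 and -0.06 in WT and at -0.18, -0.12, -0.31 and 0.36 in KO, and the interferon-gamma list at 0.13, 0.09 and -0.02 in WT and at -0.20, -0.14, -0.19 and 0.39 in KO.

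The gene that fell was Trim30a, a TRIM protein that restrains inflammatory signalling and lies on chromosome 7. It was at 0.96, 0.92 and 0.49 in WT and at -0.86, -0.92, -1.22 and -0.49 in KO, with no overlap, by 1 of its 2 probe sets. That difference was -1.66 (SE 0.19, 95% interval -2.09 to -1.23, limma adjusted p 0.0341). The other probe set differed by -0.44 (adjusted p 0.717), and the gene value by -1.05. Leaving out 1 animal kept the call only without KO animal 12 (adjusted p 0.0291); without any other animal it ran from 0.0519 to 0.229, with differences from -1.81 to -1.55. Ifitm1 and Ifitm2, neighbours of Ifitm3 that also restrict viral entry, differed by -0.82 (95% interval -1.22 to -0.42) and -0.43 (95% interval -0.68 to -0.18). Their groups did not overlap and neither passed the test. By gene value, groups did not overlap in 3 of the 38 measured genes of the type I list, against 8.44% of all genes. KO animal 12 was at -0.39 for Ifitm1, the lowest of the 7. Of the interferon-gamma list, Icam1 (a leukocyte adhesion molecule) differed by -0.47, Socs1 (a feedback inhibitor of JAK kinases) by -0.52 and Cd274 (PD-L1) by -0.49, and none of them passed.

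Of the interferons themselves, 9 of 18 were measured. None lay at a level of 8 or above, and 5 lay between 2 and 4, the lowest band. The mean was lower in KO in 5 of the 9 and higher in 4 (median -0.01). Ifna11 differed by -0.32 (limma adjusted p 0.592), Ifna9 by 0.26 (adjusted p 0.74) and Ifna1 by 0.24 (adjusted p 0.801). Ifnb1 differed by -0.02 (adjusted p 0.988) and Ifng by -0.10 (adjusted p 0.879). In limma 0 of 9 passed, with 1 of 9 probe sets at an unadjusted p under 0.05, against 7.39% of all. Ifnb1 was at 0.38 in KO animal 12, next to 0.34 in WT animal 4, an animal low for the interferon-stimulated genes. The 9 ligands averaged 0.03 in each WT animal and -0.07, 0.05, 0.27 and 0.07 in KO animals 8, 10, 11 and 12. Their mean was thus highest in KO animal 11, also an animal low for most interferon-stimulated genes. Of receptors and kinases, 9 of 10 were measured, 7 with a lower mean in KO (median -0.38), and 0 passed (9 of 18 probe sets at an unadjusted p under 0.05, against the same 7.39%). Ifnar2, a chain of the type I receptor, differed by -0.52 (95% interval -0.86 to -0.17, adjusted p 0.506), Jak2, the kinase at the interferon-gamma receptor, by -0.32, and Il10rb by -0.44, each by 1 probe set. As gene values, the scale of the list median, these were -0.48, -0.39 and -0.44. Of sensors, adaptors and factors that induce interferon, 17 of 19 were measured, 13 with a lower mean in KO (median -0.14), and 0 passed (4 of 31 probe sets at an unadjusted p under 0.05, against 7.39%). Sting1 differed by -0.56 (95% interval -0.86 to -0.26, limma adjusted p 0.357). Ikbke differed by -0.52 (95% interval -0.87 to -0.17, adjusted p 0.502) and Myd88 by -0.32 (adjusted p 0.732). By gene value, groups did not overlap in 2 of the 17, Sting1 and Ikbke, against 8.44% of all genes. Of genes that restrain the pathway, 7 of 7 were measured, 6 with a lower mean (median -0.26), and 0 passed (5 of 18 probe sets at an unadjusted p under 0.05, against 7.39%). Socs3, an inhibitor of JAK signalling induced by cytokines such as IL-6, differed by -0.81 (95% interval -1.17 to -0.44, adjusted p 0.275) by 1 probe set and by -0.76 as a gene value.

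Markers of cells that make or answer to interferon were high or low in some of the same animals. The T and NK cell list averaged 0.24, 0.10 and -0.10 in WT animals 2, 3 and 4 and -0.47, -0.13, -0.13 and 0.63 in KO animals 8, 10, 11 and 12. KO animal 12 was highest of 7 in 8 of its 12 measured genes (12.2% of all genes), and KO animal 8 was the lowest KO animal in 10 (34.9% of all). In KO animal 12, the cytotoxic genes Gzmb, Gzma, Klrk1 and Nkg7 were at 2.35, 1.61, 1.14 and 0.94, while the T cell receptor chains Cd3d, Cd3e and Cd3g were at -0.04, -0.01 and 0.02. The rest of the list lay between: Prf1, Ncr1, Cd2, Cd4 and Cd8a were at 0.54, 0.37, 0.26, 0.21 and 0.13 there. This split of the list was made after the values of KO animal 12 were seen. By their lowest array, none of the 12 lay at a level of 8 or above. The part of these cells in the spread of the interferon-stimulated genes was not tested.

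The plasmacytoid dendritic cell list ranged from -0.14 to 0.03 in WT and from -0.21 to 0.31 in KO. KO animal 12 was highest of 7 in 5 of 6 genes (12.2% of all genes), with values there from -0.05 (Tcf4) to 0.80 (Lair1). Siglech, its defining marker, was at 0.08 in KO animal 12 and between -0.28 and 0.03 in the others. Klk1, Ly6d and Ccr9 were at 0.19, 0.37 and 0.47 in KO animal 12. Ly6d was lowest in WT animal 3 (-0.93) and KO animal 8 (-0.56), the low animals of the keratinocyte list. Whether the list as a whole reads these dendritic cells in skin was not tested. Monocyte and macrophage markers had a lower mean in KO in 15 of 15 genes (median -0.38) and averaged 0.26, 0.35 and -0.05 in WT and -0.17, -0.27, -0.55 and 0.03 in KO. Their low animals, WT animal 4 and KO animal 11, were those low for most interferon-stimulated genes, and KO animal 12 was the highest KO animal but not above WT animals 2 and 3. Fibroblast markers had the same low animals. They averaged 0.46, 0.37 and -0.14 in WT and -0.10, -0.19, -0.44 and -0.05 in KO, with WT animal 4 the lowest WT animal in 10 of 10 genes and KO animal 11 the lowest KO animal in 9. Their mean was lower in KO in 10 of 10 genes (median -0.46). Hair follicle genes also had these low animals, at -2.44 in WT animal 4 and -2.21 in KO animal 11. KO animal 11 was the lowest KO animal in 12 of the 12 hair follicle genes, and WT animal 4 the lowest WT animal in 10. KO animals 8 and 10 were the highest there, at 3.78 and 3.90. Endothelial markers had a lower mean in KO in 11 of 11 genes (median -0.76), 10 of them with groups that did not overlap (8.44% of all genes), and averaged 0.18, 0.65 and 0.31 in WT and -0.52, -0.56, -0.26 and -0.16 in KO. Neutrophil markers had a lower mean in KO in 8 of 8 genes (median -0.77) and were lowest in KO animal 12, at -0.36. The part of these cells in the result was likewise not tested.

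**Figure D5:**
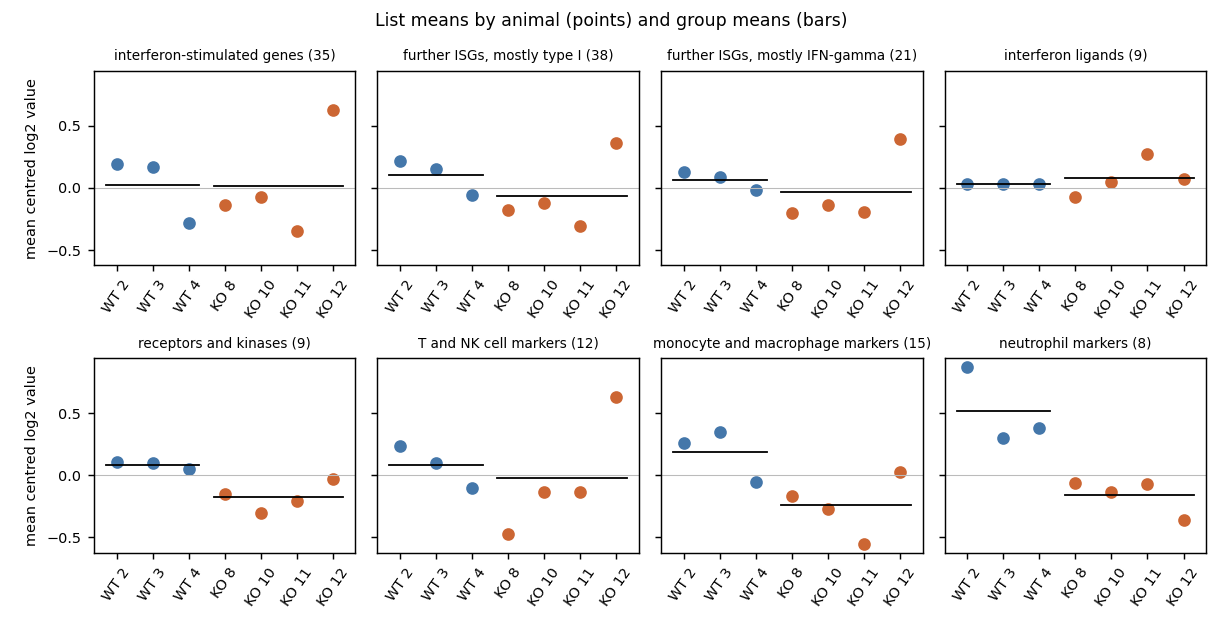
Mean centred log2 value of the 35 interferon-stimulated genes and of pathway and marker lists in each animal, WT 2 to 4 and KO 8 to 12. KO animal 12 is highest for the interferon-stimulated genes (0.63) and for T and NK cell markers (0.63), and lowest for neutrophil markers (-0.36).

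Leaving out KO animal 12 did not bring any of the 35 genes past the test. Without it, 0 of 55 probe sets had an adjusted p under 0.05 in limma, the lowest being 0.358. At an unadjusted p under 0.05 there were 5 of 55 (Oasl2, Irf1, Stat2, Dhx58 and Gbp3), against 9.45% of all probe sets. The groups of 5 of 35 genes (Irf1, Irf9, Stat2, Gbp3 and Psmb8) then did not overlap, against 15.0% of all genes. Without KO animals 8 and 10, whose hair follicle genes stood apart, 8 of 35 genes had a lower mean in KO (48.5% of all genes) and the median difference was 0.08. The groups of Psmb9 and Tap1 then did not overlap (2 of 35 genes, 26.4% of all), with KO animals 11 and 12 above WT. Over the settings that kept all 35 genes and KO animal 12, that animal was the highest in 31 to 33 genes.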

How the data were processed

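RNA of 7 animals (3 WT, 4 KO) was measured on 1-colour Affymetrix mouse arrays, 1 animal each. The deposited values are log2 intensities from GCRMA, per the submitters' processing notes; no version or chip definition is given in the sources used here. The authors had subtracted a constant from each probe set (a neighbouring pair of values mirrored around 0 to within 1e-06 in 72.5% of probe sets), so the table carries no levels. The baseline behind this constant is not stated. A median of these 7 arrays would put 1 value at 0 and leave no such pair, so which arrays formed it is not known. A base of 2 was assumed for the logarithm because GCRMA returns log2. The subtracted constant cancels in KO minus WT.

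Of 45101 probe sets, 64 controls were left out. In the platform annotation 34945 carried 1 symbol, 932 several and 9160 none, and 34741 were matched to RefSeq by Entrez ID with 0 symbols changed. Level bands with edges at log2 2, 4 and 8 were read from how finely the stored numbers are rounded. Differences came from limma 3.58.1 in R 4.3.3 (lmFit and eBayes), with Benjamini-Hochberg adjustment over 45037 probe sets, a threshold of 0.05 and no covariate. Mfge8 was also tested by exact permutation. Scripts in Python 3.11.15 (pandas 2.3.3, numpy 2.4.6, matplotlib 3.10.9) counted ranks and searched promoters, and the fit was tested on simulated data. There limma, at an adjusted p under 0.05, recovered 59% of changes of log2 1 and 92% of those of log2 2. The changed probe sets were drawn from all. Recovery was not measured for the 35 genes, whose median within-group SD was larger (0.39 against 0.19 over all genes). No pair of arrays held mostly identical values. The number of arrays limits the precision.

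The genes and lists were chosen with earlier results of these data known. Values by animal are given for Mfge8, for probe sets of the 35 genes whose groups do not overlap and, in each role group, for the gene with the smallest p; other pathway genes are up to 3 per list by smallest p, with Ifnb1 and Ifng. 1 further gene that the rule names is not reported here. Further genes were named after their values were seen. Alternatives tried were arrays quantile normalized, centred on their medians or weighted, trended and robust eBayes, a level of at least 4, the mean over all probe sets of a gene, no probe sets ending in _x_at, _s_at or _a_at, other thresholds, and animals left out.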

Additional observations from a re-analysis of the deposited data

Results flagged for a closer look

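In the 4 KO animals, 4 of 63 quantities checked had 1 animal far from the other 3. The gap between that animal and its nearest neighbour, divided by the range of the 4, exceeded Dixon's 95% critical value, which chance does in about 1 group in 20. In each case the far animal was KO animal 12, and it was the highest.

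Among the 35 genes, Mx2, an antiviral GTPase, had a gap of 0.89 of the range, with KO animals 8, 10 and 11 at -0.06, 0.02 and -0.02 and KO animal 12 at 0.64. Irf9, the DNA-binding part of ISGF3, had a gap of 0.831, with values of -0.26, -0.17, -0.15 and 0.36. The mean of the guanylate-binding proteins Gbp2 and Gbp3 had a gap of 0.854 (-0.38, -0.23, -0.28 and 0.63). The mean of the further interferon-gamma list had one of 0.893 (-0.20, -0.14, -0.19 and 0.39).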

How the results depend on the processing

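No probe set of the 35 genes passed an adjusted p of 0.05 under any alternative run, and the lowest adjusted p per setting ran from 0.358 (without KO animal 12) to 0.971 (without WT animal 2). The count over all probe sets, 20, was 68 with array weights, 13 after quantile normalization, 6 without KO animals 8 and 10, 11 once probe sets ending in _x_at, _s_at or _a_at were left out, 40 at an adjusted p under 0.10, and 5 to 19 when 1 animal was left out. The number of the 35 genes with a lower mean in KO, 21, was 12 after quantile normalization, 8 without KO animals 8 and 10, and 12 to 33 when 1 animal was left out. The number whose groups did not overlap, 0, was 2 without KO animals 8 and 10 and 0 to 5 when 1 animal was left out (1 without WT animal 3, Mx2, against 15.8% of all genes). The number with KO animal 11 lowest in KO, 22, was 35 without KO animals 8 and 10, which leaves only KO animals 11 and 12. The Mfge8 difference ran from -2.03 to -1.81 when 1 animal was left out, and its only probe set ends in _a_at, so that setting gives no value for it. The call of Trim30a was also lost after quantile normalization (adjusted p 0.0617) and without KO animals 8 and 10 (0.266). Of the medians of pathway and marker lists under all alternatives, 8 moved by more than the spread between animals and 202 did not, and so did 0 of 482 differences of the 35 genes. The cause of these shifts was not tested. The counts of animal orders, the Mfge8 and Trim30a alternatives and those of the lists were added after seeing the data. No paired analysis was possible because the groups share no animal number. With 3 and 4 animals, changes smaller than the reach of the intervals given were not resolved, and centred values leave levels and detection unknown beyond the coarse bands.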
